A study of Ovis aries with 15 samples.

Results

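The desmosome proteins are described here by the transcripts of 10 genes: the adhesion receptors DSG1, DSG2, DSG3, DSC2 and DSC3, the linkers JUP, PKP1, PKP2 and PKP3, and the keratin anchor DSP. Members were chosen by gene name, and all 10 were found, each in 1 row, among the 19304 genes of every table. The tissue was the ruminal epithelium, a stratified layer that lines the largest forestomach, of male Hu lambs aged 6 months. Total RNA was sequenced in 15 libraries, 5 from each of 3 groups labelled HP, HG and CON. From the title of the series, HP was read as lambs on a pelleted high-grain diet, HG as lambs on the same kind of diet without pelleting, and CON as the control. No genotype or other treatment was given, and diet composition and feeding time are not stated in these sources. The labels do not state whether separate animals gave the libraries, so p-values measure the spread between these libraries, which may be technical.

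Desmosomes are junctions that rivet neighbouring cells together and tie their keratin filaments into a network across the tissue. Desmogleins and desmocollins are cadherins that bind the neighbouring cell from outside. On the inner face, plakoglobin (JUP) and the plakophilins (PKP) join the cadherin tails to desmoplakin (DSP), which holds the keratins. In human and mouse epidermis the isoforms are layered: DSG3 and DSC3 mark the basal side, DSG1, DSC1 and PKP1 are strongest in the upper layers, and DSG2, DSC2 and PKP2 are better known from simple epithelia and the heart. In the rumen this junctional network is part of the barrier between fermenting feed and blood.

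Values were FPKM, read fragments corrected for the length of each transcript and for library size, so that levels of different genes can be set side by side. Sequencing depth is unknown from such values, and no counting interval can be given. The tissue label held up against its markers: the basal keratins KRT5, KRT14 and KRT15 averaged 1428, 934 and 833 FPKM over the 15 libraries, and KRT6A, a keratin found above the basal layer, 3166 FPKM. Of the other suprabasal markers, KRT13 and IVL averaged 1042 and 152 FPKM. KRT4, KRT10, CRNN and KRT1 averaged only 8.48, 6.67, 2.58 and 1.05 FPKM, and TGM1 ran from 0 to 188 FPKM with a median of 0. Libraries CON1 and CON3 stood apart, with median values over all genes of 1.98 and 1.52 FPKM against 2.51 to 3.19 FPKM in the others, and with 28.3% and 31.0% of all FPKM in ribosomal protein genes against 17.2% to 24.5%. Smooth muscle markers also differed widely: 9 of 10 were found, and their sum was 188 to 3260 FPKM in HP, 212 to 5494 FPKM in HG and 185 to 1690 FPKM in CON, highest in HG2, HG3, HP5 and CON1. Such bulk values cannot tell fewer cells of a type from less RNA per cell.

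The 10 genes covered a wide range of levels. Averaged over the 15 libraries, JUP (169 FPKM), DSP (157 FPKM), PKP1 (127 FPKM), PKP3 (98.0 FPKM), DSC2 (83.8 FPKM) and DSG3 (77.8 FPKM) formed an upper tier. Within this tier the order was not fixed, since each gene lay above the next in only 9 to 12 of 15 libraries and their ranges overlapped. DSC3 came next with 17.4 FPKM, below DSG3 in 15 of 15 libraries and without overlap of their ranges. PKP2 followed with 3.21 FPKM, again below DSC3 in every library, and then DSG2 with 1.88 FPKM, below PKP2 in 15 of 15 libraries although their ranges overlapped. DSG1 was the lowest member with 0.955 FPKM, below DSG2 in 13 of 15 libraries. JUP lay above 97.9% of all genes by mean FPKM and DSG1 above 33.5%.

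**Figure D1:**
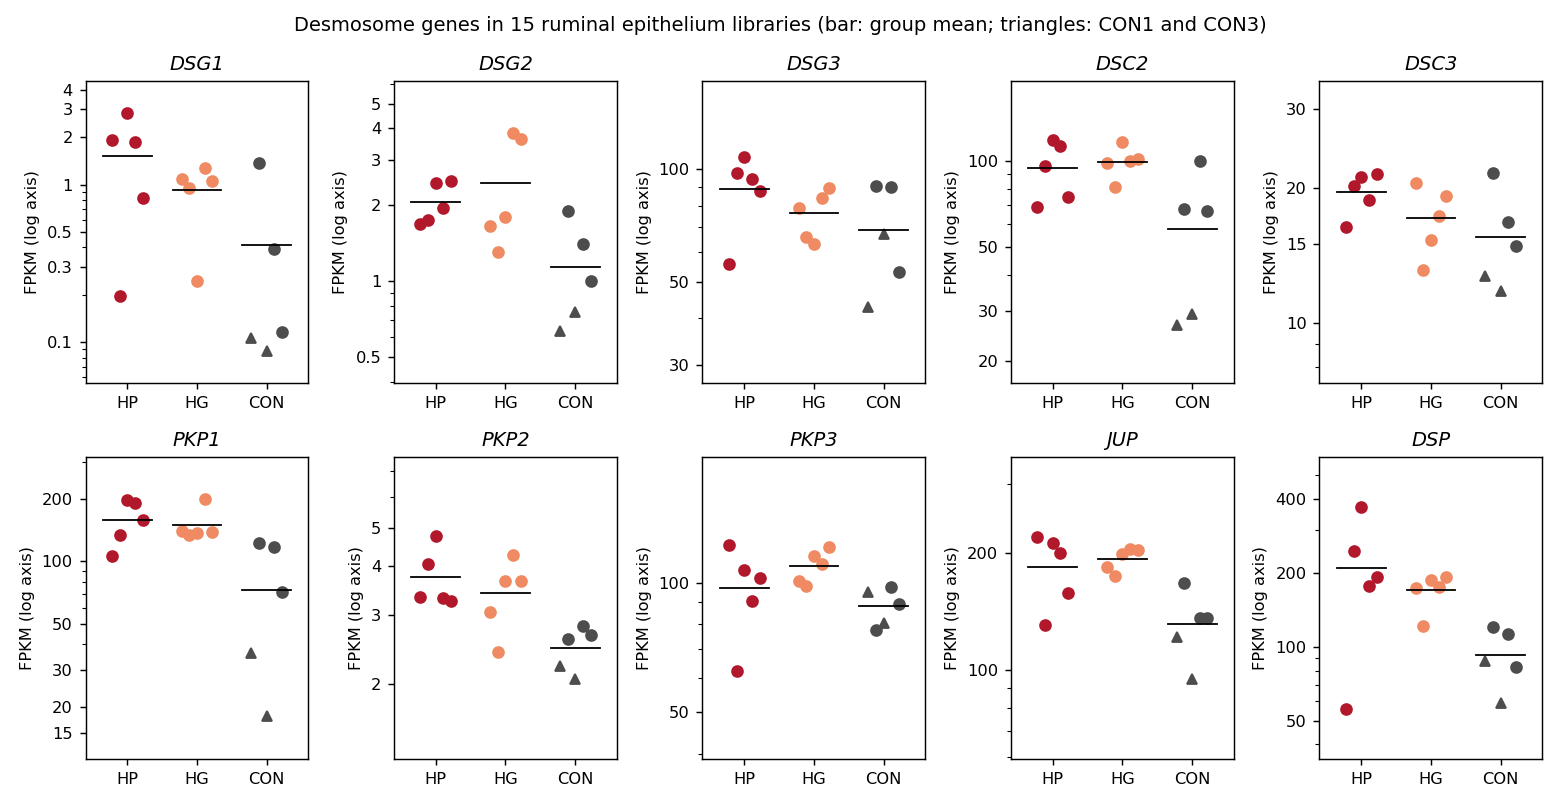
FPKM (log axis, a separate scale for each gene) of the 10 desmosome genes in the libraries of HP, HG and CON; each point is 1 library, the bar is the group mean, and triangles mark CON1 and CON3. DSP, JUP, PKP1 and PKP3 of all 5 HG libraries lay above those of all 5 CON libraries, as for 4.44% of all genes. In HP this held for PKP2 alone, as for 2.69% of all genes. CON1 and CON3 were the lowest 2 of the 15 libraries for 7 of 10 genes. They also had the lowest medians over all genes, and the share of all genes with this order was not computed.

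Among the desmogleins, DSG3 carried nearly all of the signal. It made up 96.0% ± 1.504 of the summed FPKM of DSG1, DSG2 and DSG3 in HP, 95.9% ± 1.19 in HG and 97.9% ± 0.839 in CON (SD, n = 5 each). By library, DSG3 was at 55.7, 97.8, 108, 94.2 and 87.5 FPKM in HP1 to HP5, at 79.0, 66.1, 63.0, 83.9 and 89.2 in HG1 to HG5, and at 42.8, 90.6, 67.0, 90.0 and 53.2 in CON1 to CON5. All 3 groups overlapped, and HP1, the lowest HP library, lay above only CON1 and CON5. The log2 fold change of FPKM + 1 was 0.39 for HP against CON (95% interval -0.07 to 0.85) and 0.19 for HG against CON (-0.26 to 0.65).

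DSG1, the desmoglein of the upper epidermis, was close to the floor of detection in most libraries. Its values were 1.91, 0.197, 2.83, 1.86 and 0.824 FPKM in HP1 to HP5, 1.08, 0.952, 0.243, 1.28 and 1.05 in HG1 to HG5, and 0.106, 1.37, 0.088, 0.393 and 0.116 in CON1 to CON5. The 3 lowest of the 15 libraries were all CON, but HP2 and HG3 were also low and CON2 was above all 5 HG libraries. DSG1 passed the filter on low values (at least 1 FPKM in at least 5 libraries) with 3 HP, 3 HG and 1 CON library. It was thus tested mainly through the groups in which it was higher, so its calls against CON are no independent support. On the scale of FPKM + 1, which understates changes of low genes, its log2 fold change was 0.79 for HP against CON (95% interval 0.16 to 1.43) and 0.48 for HG against CON (-0.15 to 1.11), and with a pseudocount of 0.1 it was 1.81 and 1.36. The limma adjusted p with the pseudocount of 1 was 0.119 and 0.298.

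DSG2, a desmoglein of simple epithelia and heart, was present at a few FPKM. It read 1.68, 1.75, 2.44, 1.94 and 2.47 FPKM in HP1 to HP5, 1.65, 1.298, 1.79, 3.84 and 3.64 in HG1 to HG5, and 0.633, 1.89, 0.757, 1.40 and 1.00 in CON1 to CON5. CON2 overlapped with the HP and HG libraries, while the other 4 CON libraries lay below all HP libraries. CON4 lay above HG2, so HG and CON overlapped in that library too. Its log2 fold change was 0.54 for HP against CON (limma adjusted p 0.137) and 0.65 for HG against CON (limma adjusted p 0.0942). At this level the scale of FPKM + 1 understates the change, as it does for DSG1.

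The desmocollins were led by DSC2. It took 82.3% ± 3.22 of the summed FPKM of DSC2 and DSC3 in HP, 85.3% ± 2.10 in HG and 76.5% ± 7.30 in CON (SD, n = 5 each). DSC2 was at 69.2, 95.5, 118, 113 and 74.7 FPKM in HP1 to HP5, at 98.5, 81.0, 116, 99.8 and 101.2 in HG1 to HG5, and at 26.9, 67.7, 29.3, 99.5 and 66.7 in CON1 to CON5. CON1 and CON3 were far below all other libraries, and CON4 was within the range of both high-grain diets. The log2 fold change was 0.83 for HP against CON (limma adjusted p 0.112) and 0.93 for HG against CON (limma adjusted p 0.0873), and without CON1 and CON3 it was 0.26 and 0.36.

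DSC3, the desmocollin of the basal side, varied little, with a highest library 1.83 times the lowest. Its level was 16.4, 20.2, 21.1, 18.8 and 21.5 FPKM in HP1 to HP5, 20.6, 13.2, 15.4, 17.4 and 19.2 in HG1 to HG5, and 12.8, 21.6, 11.8, 16.8 and 14.8 in CON1 to CON5. The groups overlapped, and the highest value of all was in CON2. Its log2 fold change was 0.34 for HP against CON (95% interval -0.004 to 0.68) and 0.15 for HG against CON (-0.20 to 0.49). Relative to the median of all genes tested, DSC3 and DSG3 in HG against CON stood at -0.03 and 0.02, and with median-ratio scaling of the libraries their fold changes turned to -0.07 and -0.03.

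Of the linkers, PKP1, the plakophilin of the upper epidermis, had the largest log2 fold changes of FPKM + 1 of the 10 members against the control. That scale understates changes of low genes such as DSG1, so the ranking holds for it only. It was at 106, 134, 198, 189.9 and 157 FPKM in HP1 to HP5, at 140.5, 134, 137, 198 and 138 in HG1 to HG5, and at 36.4, 123, 18.1, 118 and 71.5 in CON1 to CON5. All HG libraries lay above all CON libraries, HP1 was within the range of CON, and CON1 and CON3 were again the lowest. Those log2 fold changes were 1.37 ± 0.405 SE for HP against CON (limma adjusted p 0.0991) and 1.32 ± 0.405 SE for HG against CON (limma adjusted p 0.0834). Without CON1 and CON3, the 2 fold changes were 0.60 and 0.54. PKP1 was 60.7% ± 8.77 of the summed plakophilins PKP1, PKP2 and PKP3 in HP, 56.8% ± 4.25 in HG and 40.7% ± 17.8 in CON (SD, n = 5 each), with 27.3% in CON1 and 17.9% in CON3.

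PKP3, which human and mouse epidermis carries in most layers, gave the flattest profile of the linkers. Its values ran from 62.3 to 122 FPKM in HP, from 98.3 to 121 FPKM in HG and from 77.5 to 97.7 FPKM in CON, so that HG and CON did not overlap while HP spanned both. The log2 fold change was 0.11 for HP against CON (95% interval -0.22 to 0.44) and 0.31 for HG against CON (-0.02 to 0.64). For HP against CON it turned to -0.13 with median-ratio scaling and to -0.03 without CON2 and HP1.

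PKP2, the plakophilin of heart and simple epithelia, was a minor isoform, at 1.48% ± 0.339 of the summed plakophilins in HP, 1.296% ± 0.165 in HG and 1.58% ± 0.312 in CON. It was at 3.33, 4.05, 4.77, 3.31 and 3.26 FPKM in HP1 to HP5, at 3.06, 2.41, 3.67, 4.27 and 3.67 in HG1 to HG5, and at 2.22, 2.61, 2.05, 2.82 and 2.67 in CON1 to CON5. All 5 HP libraries lay above all 5 CON libraries, and HG2 was the only HG library within the range of CON. PKP2 had a log2 fold change of 0.45 for HP against CON (limma adjusted p 0.102) and of 0.34 for HG against CON (limma adjusted p 0.155), and it was 0.17 and 0.08 under quantile normalization. The scale of FPKM + 1 understates changes at this low level too.

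JUP, plakoglobin, which also serves adherens junctions, had the highest mean over the 15 libraries, although DSP averaged more in HP (209 FPKM, against 184 FPKM for JUP). It was at 219.8, 131, 211, 200.1 and 158 FPKM in HP1 to HP5, at 184, 175, 199, 204 and 204 in HG1 to HG5, and at 121, 167, 95.04, 136 and 136 in CON1 to CON5. Every HG library exceeded every CON library, whereas HP2 and HP5 were within the range of CON. JUP had the smallest p of the members in HG against CON, with a log2 fold change of 0.58 ± 0.164 SE and a limma adjusted p of 0.0779. In HP against CON the values were 0.48 ± 0.164 SE and a limma adjusted p of 0.106.

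DSP, desmoplakin, which holds the keratin filaments, had the widest spread of the abundant members within HP. It was at 55.8, 247, 372, 177 and 192 FPKM in HP1 to HP5, at 173, 121, 187, 176 and 193 in HG1 to HG5, and at 87.5, 119.8, 59.0, 113 and 82.5 in CON1 to CON5. All HG libraries lay above all CON libraries, while HP1 was the lowest of the 15 libraries and HP3 the highest. The log2 fold change was 0.98 ± 0.368 SE for HP against CON (limma adjusted p 0.119) and 0.90 ± 0.368 SE for HG against CON (limma adjusted p 0.139). Without CON2 and HP1 it was 1.496 and 1.00, and without CON1 and CON3 it was 0.77 and 0.69.

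**Figure D2:**
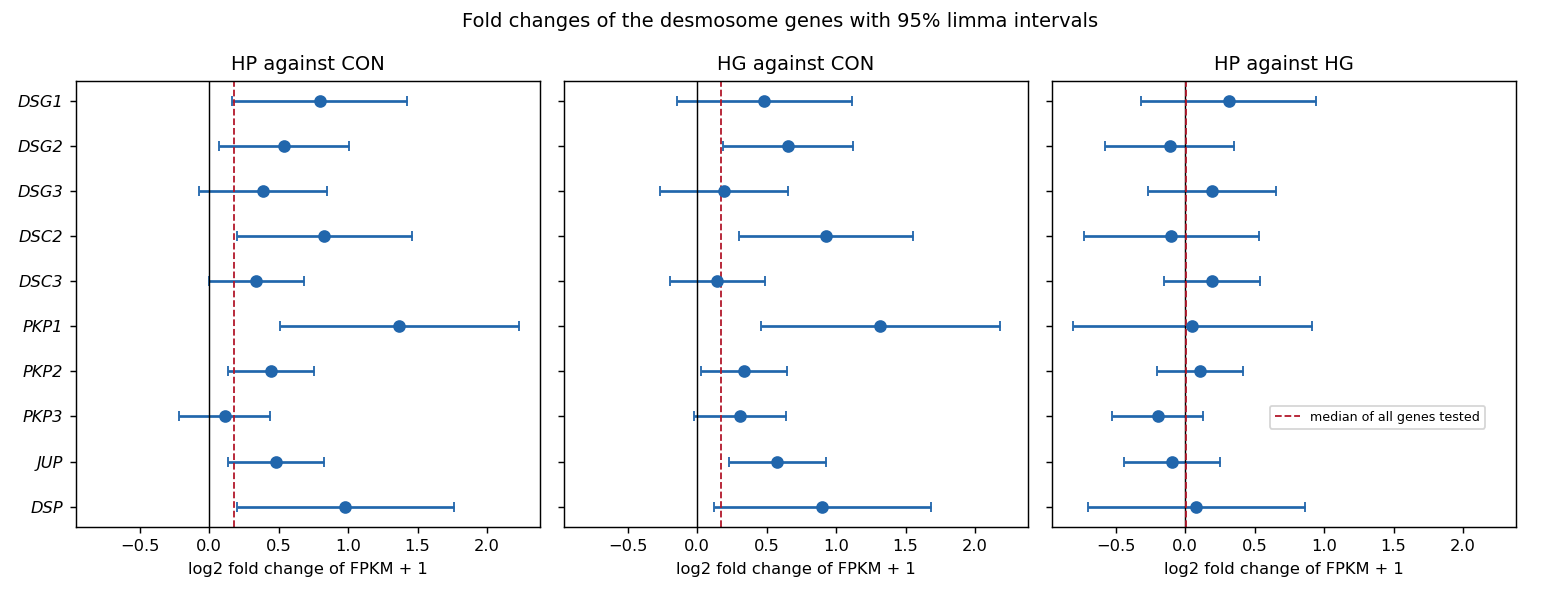
Log2 fold changes of FPKM + 1 (points) with 95% limma intervals (bars) for the 10 desmosome genes in HP against CON, HG against CON and HP against HG; the dashed line is the median of all genes tested, at 0.18, 0.17 and 0.01. All 10 points lie above 0 in the 2 comparisons with CON, and all 10 intervals include 0 in HP against HG.

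Both high-grain diets were set against the control to ask how the epithelium differs between feeding regimes. No desmosome gene passed the limma threshold in HP against CON or in HG against CON, where 0.0153% and 0% of the 13084 genes tested passed. At an unadjusted p under 0.05, 7 of 10 members were higher and 0 lower in HP than in CON, against 22.6% of all genes higher and 5.24% lower. In HG against CON 6 of 10 were higher and 0 lower, against 21.8% and 5.5% of all genes. A positive log2 fold change was found for all 10 members in both comparisons, as for 69% of all genes in HP against CON and 69.2% in HG against CON. These 2 comparisons share the CON libraries, so the like direction in them is not independent.

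The median log2 fold change of the members was 0.51 in HP against CON, where the median of all genes tested was 0.18, and 0.53 in HG against CON, where it was 0.17. Without DSG1, whose passing of the filter depended mainly on HP and HG libraries, the members' medians were 0.48 and 0.58, and 6 of 9 members were higher at an unadjusted p under 0.05 in each comparison. With median-ratio scaling, which took the median of all genes to -0.01 in both comparisons, the members' medians were 0.34 and 0.39. Under that scaling 3 of 10 members were higher at an unadjusted p under 0.05 in HP against CON and 4 in HG against CON, against 11.9% and 12.3% of all genes. With quantile normalization, 5 of 10 were higher at that level in HP against CON and 6 in HG against CON, against 11.3% and 11.6%. No count without DSG1 was made under these scalings. All 5 libraries of HP lay above all 5 of CON for 1 member (PKP2), as for 2.69% of all genes, and all 5 of HG lay above all 5 of CON for 4 members (DSP, JUP, PKP1 and PKP3), as for 4.44% of all genes.

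These values rested in part on single CON libraries. Without CON1 and CON3, 2 of 10 members (PKP1 and PKP2) were higher at an unadjusted p under 0.05 in HP against CON and 2 (JUP and PKP1) in HG against CON, against 6.36% and 7.79% of all genes. The members' medians were then 0.32 and 0.33, and the medians of all genes for this choice of libraries are not given here. CON1 and CON3 were the lowest 2 libraries for 7 of 10 members. Leaving them out thus narrows a difference by itself, here and for the single genes above. Without CON2, the library with the highest DSG1, DSG2, DSG3, DSC3, PKP1, JUP and DSP of the control, 4 of 10 members passed the limma threshold in each comparison, against 16.5% of all genes in HP against CON and 16.9% in HG against CON. The members that passed in HP against CON were JUP, PKP1 and DSC3, and also DSG1, whose call is no support because of the filter. In HG against CON they were JUP, PKP1, DSG2 and DSC2. CON2 was the only CON library with DSG1 at 1 FPKM or more, so without CON2 DSG1 was tested through HP and HG libraries alone. Leaving DSG1 aside, 3 of 9 members passed in HP against CON and 4 of 9 in HG against CON. Without CON2 and HP1, 9 of 10 members (all but PKP3) passed in HP against CON, against 24.1% of all genes (8 of 9 without DSG1), and 5 (DSP, JUP, PKP1, DSG2 and DSC2) in HG against CON, against 19.5%. HP1 was the lowest HP library for DSP, PKP1, DSG2, DSG3, DSC2 and DSC3, and the highest for JUP and PKP3. Leaving out such low HP and high CON values widens a difference by itself, so these counts give it no support. Array quality weights gave 2 calls in HG against CON, JUP and PKP1, against 6.63% of all genes. Without the 4 libraries highest in smooth muscle markers (CON1, HG2, HG3 and HP5), 5 of 10 members were higher at an unadjusted p under 0.05 in HP against CON and 3 in HG against CON, against 10% and 7.22% of all genes, and the members' medians were 0.48 and 0.59. No count without DSG1 was made for this choice of libraries, and the medians of all genes for it are not given here. The part of the ribosomal share in the values of CON1 and CON3 was not tested.

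**Figure D3:**
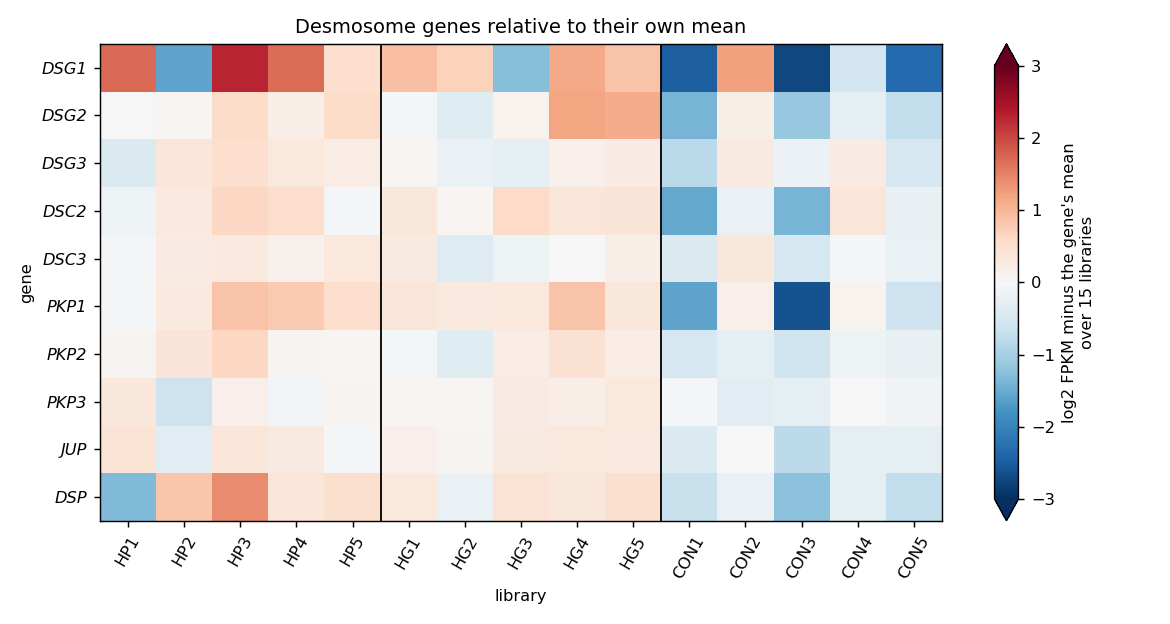
Log2 FPKM of each desmosome gene in each library minus the mean of that gene over the 15 libraries (colour scale from -3 to 3), with HP, HG and CON separated by lines. CON1 and CON3 are the lowest 2 libraries for 7 of 10 genes, and the share of all genes with this order was not computed. PKP1 in CON3 reaches -2.60, and DSP reaches 1.43 in HP3 and -1.31 in HP1.

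Pelleted against non-pelleted feeding gave no desmosome gene past the threshold. By limma, 0 of the 13084 genes passed in HP against HG, while an unadjusted p under 0.05 was reached by 142 genes higher (1.09%) and 133 lower (1.02%), and 0 of 10 members were among these. The members' log2 fold changes ran from -0.20 (PKP3, 95% interval -0.53 to 0.13) to 0.31 (DSG1, -0.32 to 0.94), with a median of 0.07, and 6 of 10 were above 0, as were 51.2% of all genes. The intervals were wide for DSP (-0.70 to 0.86), PKP1 (-0.81 to 0.91) and DSC2 (-0.73 to 0.53), so that differences within those bounds are not excluded. For 0 of 10 members did the HP libraries lie wholly above or below the HG libraries, against 0.252% of all genes above and 0.199% below.

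Ratios within a library do not depend on how that library was scaled, and they were used to compare isoforms of a family. DSG1 over DSG3 is the pair that sets the upper layer isoform against the basal one in epidermis, and the other 3 pairs involve an isoform better known from simple epithelia and heart. DSG1 over DSG3 had a log2 ratio of -4.86, -8.96, -5.25, -5.66 and -6.73 in HP1 to HP5, of -6.19, -6.12, -8.02, -6.03 and -6.40 in HG1 to HG5, and of -8.66, -6.04, -9.57, -7.84 and -8.84 in CON1 to CON5. DSG3 therefore exceeded DSG1 in every library. Of the CON libraries, 4 lay at or below -7.84, but HP2 and HG3 also lay below that level and CON2 was in the upper range of HG.

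PKP1 over PKP2 had a mean log2 ratio of 5.37 ± 0.358 in HP, 5.46 ± 0.241 in HG and 4.57 ± 1.00 in CON (SD, n = 5 each). The wide spread in CON came from CON3 at 3.14 and CON1 at 4.04, while CON2, CON4 and CON5 were at 5.56, 5.38 and 4.74. DSC2 over DSC3 averaged 2.24 ± 0.315 in HP, 2.54 ± 0.248 in HG and 1.75 ± 0.612 in CON. CON1 and CON3 were again lowest, at 1.08 and 1.31, and CON4 at 2.57 was above the mean of both diets. DSG2 over DSG3 averaged -5.42 ± 0.315 in HP, -5.09 ± 0.552 in HG and -5.97 ± 0.341 in CON, and the ranges of all groups overlapped. The groups were not tested against each other on these ratios.

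**Figure D4:**
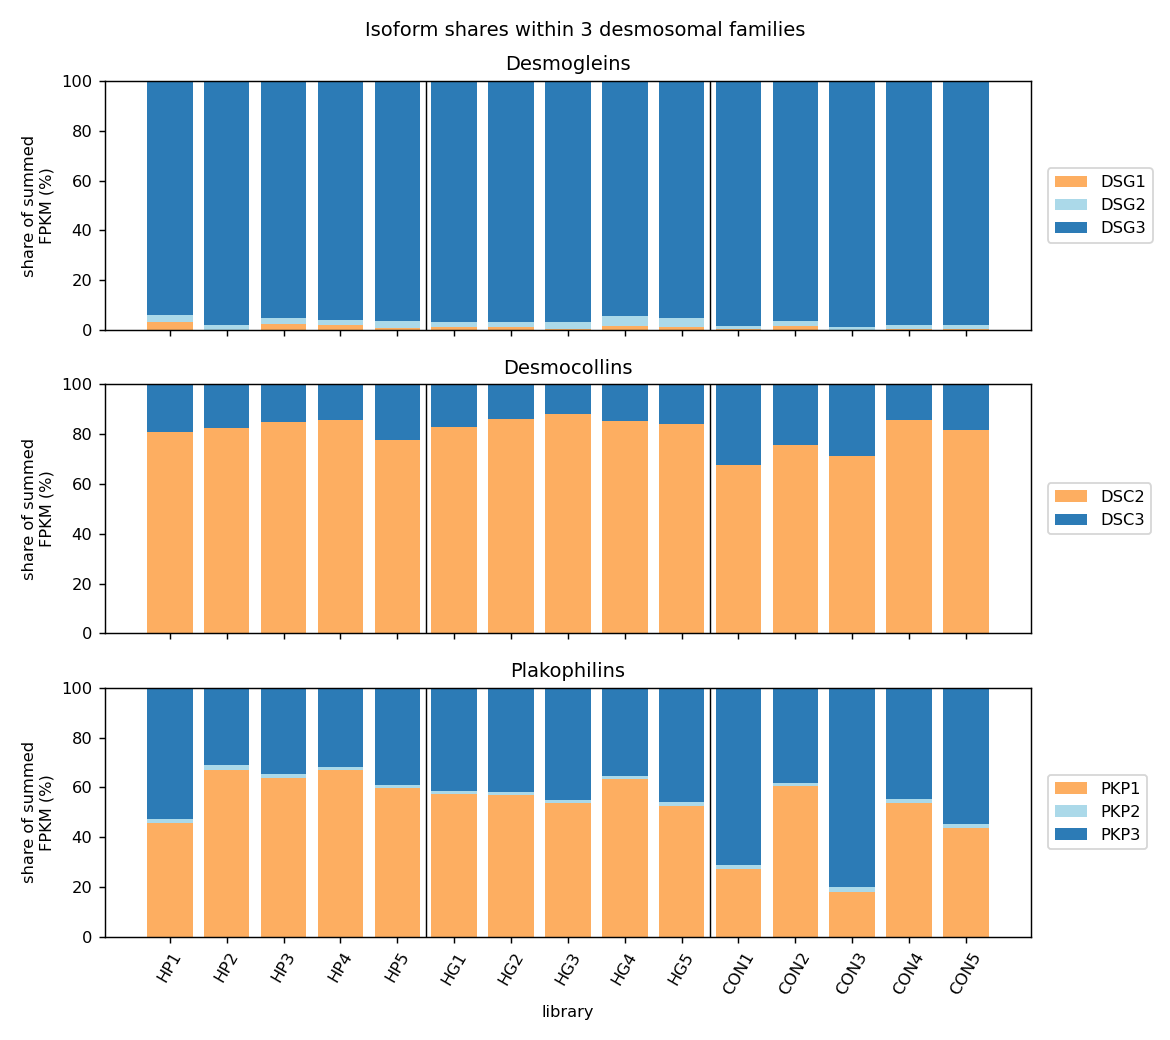
Share of the summed FPKM of a family (%) taken by each isoform in each library, for desmogleins, desmocollins and plakophilins, with HP, HG and CON separated by lines. DSG3 takes at least 93.9% of the desmogleins in every library, DSC2 takes 67.8% to 88.3% of the desmocollins, and PKP1 takes only 17.9% of the plakophilins in CON3.

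The remaining desmosome genes were taken from a list of 9. DSC1 and DSG4, the desmocollin of the upper epidermis and a desmoglein of hair and upper epidermis, were below 1 FPKM in all 15 libraries and were not tested, at 0.119 to 0.519 FPKM for DSC1 and 0.00947 to 0.815 FPKM for DSG4. In the RefSeq annotation of the sheep these 2 genes lie on chromosome 23, as do DSG1, DSG2, DSG3, DSC2 and DSC3. PERP, a membrane protein of desmosomes, was the most abundant gene of the list and the steadiest, with 635 ± 11.6 FPKM in HP, 595 ± 53.3 in HG and 581 ± 75.2 in CON (SD, n = 5 each).

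Of the 7 list genes tested, 0 passed the limma threshold in each comparison. At an unadjusted p under 0.05, 5 were higher in HP than CON and 4 in HG than CON, with 0 lower in either, against 22.6% and 21.8% of all genes higher. Both counts included CDSN, which passed the filter only through HP and HG libraries, and without it they were 4 of 6 and 3 of 6. Periplakin (PPL), a plakin of the upper layers, was at 64.6, 60.2, 87.5, 103 and 71.2 FPKM in HP1 to HP5, at 69.5, 68.1, 77.9, 61.9 and 60.4 in HG1 to HG5, and at 40.5, 56.8, 29.8, 54.0 and 30.01 in CON1 to CON5. Both diets lay above every CON library, with log2 fold changes of 0.88 for HP against CON (limma adjusted p 0.0991) and 0.71 for HG against CON (limma adjusted p 0.0779). Envoplakin (EVPL), its partner, was at 38.0 ± 7.95 FPKM in HP, 40.3 ± 6.15 in HG and 25.8 ± 10.1 in CON. Corneodesmosin (CDSN), which joins cells of the cornified layer, was at 1.28 ± 1.29, 1.21 ± 0.434 and 0.350 ± 0.307 FPKM in HP, HG and CON, with 2 HP, 3 HG and 0 CON libraries at 1 FPKM or more. Kazrin (KAZN), a periplakin-binding protein, was at 5.56 ± 1.32 FPKM in HP, 7.93 ± 3.65 in HG and 3.50 ± 1.81 in CON. PKP4, a relative of the plakophilins that is found at adherens junctions as well, was at 23.8 ± 3.92, 20.99 ± 2.74 and 17.2 ± 5.16 FPKM, and pinin (PNN) at 19.3 ± 0.858, 16.1 ± 2.32 and 14.8 ± 3.77 FPKM in HP, HG and CON. All HP libraries lay above all CON libraries for PPL and PNN, 2 of 7 genes, as for 2.69% of all genes. In HG this held for PPL alone, as for 4.44% of all genes.

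Regulators of desmosomes were described from a list of 14 genes, of which 13 were found and 11 tested. None passed the limma threshold in any comparison. At an unadjusted p under 0.05, 7 were higher in HP than CON, 3 in HG than CON and 2 in HP than HG, with 0 lower in each, against 22.6%, 21.8% and 1.09% of all genes higher. The 3 of 11 in HG against CON were near that background. SPINK5, an inhibitor of the proteases that cut corneodesmosomes, was the most abundant, at 182 ± 41.9 FPKM in HP, 139 ± 15.5 in HG and 141 ± 20.1 in CON. Those proteases, KLK5 and KLK7, named here after their values were seen, did not exceed 0.488 and 0.574 FPKM in any library. KLF4, a transcription factor of differentiating keratinocytes, was at 70.3 ± 6.41 FPKM in HP, 75.4 ± 7.50 in HG and 41.2 ± 16.7 in CON, and both diets lay above every CON library. All HP libraries lay above all CON libraries for 2 of 11 regulators, as for 2.69% of all genes. The same count was found in HG, as for 4.44% of all genes. The log2 fold change of KLF4 was 0.85 for HP against CON (limma adjusted p 0.0991) and 0.95 for HG against CON (limma adjusted p 0.0779). GRHL1, a regulator of DSG1 in the mouse, was at 25.7 ± 4.01, 24.2 ± 1.13 and 21.4 ± 5.01 FPKM, and ATP2A2, the calcium pump mutated in human Darier disease, at 23.1 ± 5.14, 20.4 ± 1.14 and 16.3 ± 6.26 FPKM in HP, HG and CON.

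Intermediate filament and linker genes went both ways. Of the 13 intermediate filament and linker genes on the list, 12 were tested and 0 passed the limma threshold, and at an unadjusted p under 0.05 there were 2 higher and 1 lower in HP than CON, 1 higher in HG than CON and 1 higher in HP than HG. Over all genes, 22.6% were higher and 5.24% lower in HP than CON, 21.8% higher in HG than CON and 1.09% higher in HP than HG. Their median log2 fold change was 0.07 in HP against CON and 0.01 in HG against CON. The list holds VIM, the linker PLEC and DES, which is also 1 of the smooth muscle markers. DES was highest in HG2, HG3, HP5 and CON1, so these counts and medians are not those of keratins alone. The highest fold change of the list in HP against CON belonged to KRT4, a keratin of wet stratified epithelia named here after its values were seen. It was at 31.5, 13.6, 4.51, 2.65 and 49.3 FPKM in HP1 to HP5, against 0.912 to 5.07 FPKM in HG and 0.856 to 6.94 FPKM in CON. HP1, HP2 and HP5 were above all HG and CON libraries, while HP3 and HP4 overlapped with both. The log2 fold change of KRT4 was 2.05 for HP against CON (limma adjusted p 0.0994) and 2.16 for HP against HG (limma adjusted p 0.999). KRT5, the main basal type II keratin, was at 1248 ± 468 FPKM in HP, 1512 ± 398 in HG and 1523 ± 500.3 in CON. KRT13 was at 1414 ± 661, 817 ± 342 and 894 ± 417 FPKM, KRT14 at 1021 ± 620.4, 966 ± 499.9 and 814 ± 202, and KRT15 at 938 ± 317, 884 ± 225 and 676 ± 112 FPKM in HP, HG and CON. Keratins have close relatives whose reads may be shared, so all these keratin values, those of KRT4 and KRT5 included, are uncertain. PLEC (plectin), a cytolinker of the plakin family named here after its values were seen, was at 40.2 ± 18.4 FPKM in HP, 41.8 ± 10.8 in HG and 18.2 ± 11.1 in CON, with log2 fold changes of 1.13 and 1.28 and limma adjusted p-values of 0.102 and 0.0804.

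Markers of cell layers and of other cells were read beside these values. The 7 basal keratinocyte markers, all found, had a median log2 fold change of 0.45 in HP against CON and 0.48 in HG against CON, and 4 of 7 were higher at an unadjusted p under 0.05 in each, against 22.6% and 21.8% of all genes. These were COL17A1, ITGA6 and ITGB4, which anchor basal cells to the basement membrane, and the transcription factor TP63, named here after their values were seen, while KRT5 stood at -0.32 and 0.004. COL17A1 was at 88.9 ± 19.5 FPKM in HP, 88.3 ± 12.8 in HG and 52.4 ± 16.2 in CON (limma adjusted p 0.0991 in HP against CON and 0.0779 in HG against CON). The 8 suprabasal markers found of 10 had medians of 0.05 and -0.04. They include TGM1, which ran from 0 to 188 FPKM with a median of 0 over the 15 libraries and cannot be read as a layer marker here. The part of the basal markers in the desmosome values was not tested. The smooth muscle markers had a median log2 fold change of -0.15 in HP against CON and 1.33 in HG against CON, while the members' medians were 0.51 and 0.53. The sum of 8 endothelial markers, all found, was 96.0 to 192 FPKM in HP, 101.03 to 147 FPKM in HG and 77.2 to 114 FPKM in CON. The sum of 7 fibroblast markers was 1021 to 1845 FPKM in HP, 1182 to 1965 FPKM in HG and 775 to 1268 FPKM in CON, with a median log2 fold change of 0.52 in HP against CON and 0.50 in HG against CON. Of the simple epithelium markers, KRT8 was at 0.0195 to 0.653 FPKM and KRT18 at 0.0627 to 2.81 FPKM over the 15 libraries, while KRT19, KRT7 and EPCAM averaged 116, 27.4 and 23.2 FPKM. Of the 10 heart and skeletal muscle markers 6 were found. TNNT2 was at 0 to 0.891 FPKM, TNNI3 at 0.465 to 6.53 FPKM with the highest value in CON1, and TNNT3 at 9.62 to 33.2 FPKM. The summed level of the 6 was 16.7 to 43.4 FPKM in HP, 21.3 to 65.7 FPKM in HG and 15.6 to 43.4 FPKM in CON. The part of endothelial and fibroblast RNA in the desmosome values was not tested.

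The genes whose pattern over the 15 libraries was most like that of 3 members were listed by Pearson correlation on median-ratio scaled values, among 6932 named genes of sufficient level (mean of 5 FPKM or more). The coefficients are descriptive, and the points share 3 groups and the differences between libraries. For DSP they were PARD3 (0.93), DENND2C (0.89), ROBO1 (0.86), USP24 (0.86) and AP1G1 (0.85). For DSG3 they were ESRP1 (0.88), BCLAF1 (0.85), ARMC8 (0.82), RAP2C (0.82) and SLC33A1 (0.82). For DSG1 they were EFS (0.90), INTS3 (0.85), FURIN (0.82), SGPL1 (0.80) and PCNXL3 (0.80). PARD3 encodes a cell polarity protein, ESRP1 an epithelial splicing regulator and FURIN a protease that cleaves proproteins, and the 3 lists shared no gene.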

How the data were processed

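RNA of 15 ruminal epithelium libraries was sequenced. The authors deposited FPKM, 1 table per library, per the file headers; the submitters' processing notes name HISAT2 and StringTie 1.3.4d, with no role or order. No source used here gives the genome build, the annotation, read filters or strandedness. Since FPKM carries no read number, count models and counting intervals were not used.

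A gene was tested where 5 or more libraries reached 1 FPKM, which left 13084 of 19304. Values entered limma (version 3.58.1, R 4.3.3, statmod 1.5.0) as log2(FPKM + 1), in 1 linear model with a mean for each of the 3 groups; variances were moderated robustly along a mean trend. Tests were two-sided, with Benjamini-Hochberg adjustment over all genes in each comparison and a threshold of 0.05. The procedure was tested on simulated data. Symbols are those of the tables; of 1933 genes listed under a number only, 346 were given one from RefSeq (ARS-UI_Ramb_v3.0), which served for names and chromosomes only.

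The members, lists and tests were chosen with earlier results of these data known. Named were all members, all 9 other desmosome genes and, from each regulator or filament list, up to 4 genes of highest mean; KRT4, PLEC, KLK5, KLK7 and markers of cell types were named outside that rule, after their values were seen. Alternatives changed the pseudocount (0.1), the filter (none, or 5 FPKM), the scaling (by median ratio or quantiles), the libraries fitted, their weights, or added the replicate number or a smooth muscle score to the model.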

Additional observations from a re-analysis of the deposited data

Results flagged for a closer look

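Within groups of 5 libraries, 7 values stood farther from the other 4 than Dixon's test allows (critical ratio 0.71), out of 69 groups checked in desmosome genes and isoform ratios; chance flags about 1 group in 20. DSP in HG2 was at 121 FPKM, against 173 to 193 FPKM in the other HG libraries, and PKP1 in HG4 was at 198 FPKM, against 134 to 140.5 FPKM. DSG1 in CON2 was at 1.37 FPKM, against 0.088 to 0.393 FPKM in the other CON libraries. The log2 ratio of DSG1 over DSG3 in HG3 was -8.02, against -6.40 to -6.03. In HP, DSG4 was at 0.815 FPKM in HP3 (0.0603 to 0.249 in the others), CDSN at 3.52 FPKM in HP1 (0.318 to 1.22 in the others) and PERP at 614 FPKM in HP1 (639 to 642 in the others).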

How the results depend on the processing

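Depth is unknown, and with 5 libraries a group the calls depended on single CON libraries. Of 267 single-gene values per comparison, 252 in HP against CON, 251 in HG against CON and 255 in HP against HG kept direction and side of the threshold; 13, 11 and 0 newly passed it, and 2, 5 and 12 changed sign. The cause was not tested for any change given here. In HP against CON, where 2 genes passed, the count was 1 with a pseudocount of 0.1, without the filter and with the replicate block, 7 in only the 10 libraries compared, 0 with array quality weights and without CON1 and CON3, and 3154 without CON2 and HP1, where 9 members passed. In HG against CON, where 0 passed, it was 1 with the filter at 5 FPKM and in only the 10 libraries, 868 with array quality weights (2 members), 2552 without CON2 and HP1 (5 members), and 2 without CON1, HG2, HG3 and HP5, a choice made after seeing the data, which also gave 2 in HP against HG. CON2 and HP1 held extreme values of several members, so the member counts without them are no support for a difference. For 8 of 10 members the lowest library was CON1 or CON3, so values without these 2 are no support against a difference. Leaving out 1 library at a time gave 0 to 2165 genes and 0 to 4 members in HP against CON, 0 to 2209 genes and 0 to 4 members in HG against CON, and 0 to 1 genes in HP against HG; the highest counts of the comparisons with CON came without CON2. The members' median in HG against CON was 0.74 with a pseudocount of 0.1. On FPKM + 1, the mean log2 ratio of DSG1 over DSG3 within a library was -5.40 (-7.01 as reported) and the mean log2 ratio of DSG2 over DSG3 within a library was -4.80 (-5.49 as reported). Log2 fold changes that changed sign were, in HP against CON, PKP3 (-0.13 with median-ratio scaling, -0.026 without CON2 and HP1), and in HG against CON, DSG3 (-0.035 with median-ratio scaling, -0.0031 without CON1 and CON3) and DSC3 (-0.071 with median-ratio scaling, -0.045 with quantile normalization, -0.048 without CON1 and CON3). In HP against HG they were DSC2 (0.0019 without CON2 and HP1), DSP (-0.053) and PKP1 (-0.042), both without CON1, HG2, HG3 and HP5. Leaving out 1 library there gave ranges of -0.19 to 0.49 for DSP, -0.17 to 0.021 for JUP, -0.040 to 0.18 for PKP1, -0.24 to 0.027 for DSG2 and -0.19 to 0.0019 for DSC2. Same-numbered libraries did not pair: 3 of 15 pairs had a correlation over 0.1 (range -0.20 to 0.29), and the replicate block gave 0 member calls.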

Other observations

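Among the plaque proteins, the order of the HP libraries differed by gene. HP1 had the lowest DSP of the 15 libraries (55.8 FPKM) together with the highest JUP (219.8 FPKM) and the highest PKP3 (122 FPKM). HP2 had the lowest PKP3 (62.3 FPKM) and the third lowest JUP (131 FPKM) with the second highest DSP (247 FPKM). The ratio of DSP over JUP was 0.254 in HP1 and 1.89 in HP2, against 0.695 to 0.948 in HG and 0.606 to 0.828 in CON. It was 1.76 in HP3, 1.22 in HP5 and 0.887 in HP4. HP3 also had the highest value of 5 of the 10 desmosome genes, and the share of all genes highest there was not computed. This comparison of plaque proteins was chosen after the values were seen, and no test was run on it.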
